A study of Helianthus annuus with 15 samples.

Results

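Root was set against flower in sunflower (Helianthus annuus), using 3 root and 3 flower libraries out of 15 libraries of mRNA sequencing. The other 9 came from stem, leaf and axil, where a leaf joins the stem, with 3 per tissue. The genes compared were those with at least 1 FPKM (fragments per kilobase of gene, scaled to the depth of the library) in 3 or more of the 15 libraries. They were 34586 of the 63411 rows of the table, or 54.5%. The labels describe each group by its tissue alone. The sources used here do not give the line, the age of the plants, or the part and stage of the flower. Nor do they say that replicate libraries were made from separate plants, and the spread behind each p-value is that of these libraries, possibly a technical one.

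The root anchors the plant and takes up water and mineral nutrients, usually in the dark and without photosynthesis. The flower of sunflower is a head of many small florets borne on the shoot, in which petals, pollen and ovules form. The table lists genes by identifier and pairs 1 identifier with a name, NAC83. None (0) of the identifiers matched the RefSeq gene table of assembly HanXRQr2.0-SUNRISE. The tissue labels could therefore not be checked against marker genes, and lists of nutrient transporters, floral regulators, photosynthesis genes and TCP transcription factors were not analysed here.

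Depth was similar in both tissues, with 12087701 to 14549226 reads in the root libraries and 12880221 to 14732358 in the flower libraries. For a gene 1000 nt long, 3 reads amounted to between 0.204 and 0.248 FPKM. Intervals and floors built on reads cover counting error only. Flower 1 and, among the other tissues, Leaf 2 stood apart from their replicates in organelle, noncoding RNA and unplaced identifiers, and results that rest on Flower 1 are also given without it.

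Root and flower libraries were far apart relative to the spread within each tissue. Across the genes tested, Pearson's r of log2(FPKM + 1) lay between 0.942 and 0.960 for pairs of root libraries and between 0.970 and 0.983 for pairs of flower libraries. For the 9 pairs of a root with a flower library it lay between 0.503 and 0.529. Each r runs across genes, and genes do not count as independent replicates. The median of 0.517 between root and flower was the lowest of the 10 pairs of tissues, as the name of the comparison says. Root libraries had medians of 0.610 with stem, 0.602 with leaf and 0.706 with axil, whereas flower libraries had medians of 0.818 with stem, 0.722 with leaf and 0.738 with axil.

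The root libraries varied more among themselves than the flower libraries did. The median SD of a gene on the log2(FPKM + 1) scale was 0.214 in root and 0.145 in flower. An SD above 1 was found for 1051 genes in root (3.04%) and for 268 in flower (0.775%). Replicates differed by more than sampling noise, so no library was taken for another one deposited again. This does not show that they came from separate plants. Chi-square divided by its degrees of freedom was 27.7 to 41.1 between root libraries and 10.3 to 15.4 between flower libraries.

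Of the genes tested, 6064 were higher in root (17.5%) and 7157 were higher in flower (20.7%), together 38.2% of all. A call required a limma adjusted p below 0.05 together with a difference, root minus flower, of 1 or more in size on the log2(FPKM + 1) scale. In bulk tissue, fewer cells of a type and less RNA per cell cannot be told apart. The log2(FPKM + 1) scale understates the change of low genes. The larger group was the flower one with FPKM as deposited, but scaling the libraries to the same summed FPKM turned this round, with 6971 genes higher in root and 6512 higher in flower. That scaling moved the median difference of all genes from -0.01 to 0.11. After quantile normalization the groups were nearly equal, with 6483 genes higher in root and 6604 higher in flower.

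Large differences were found in both directions, for a small part of the 34586 genes tested. A difference of at least 4 on the log2 scale was found for 736 genes higher in root and 947 higher in flower, and one of at least 6 for 140 and 273 genes in these directions. At 8 or more, 17 genes were higher in root and 56 in flower. Over all genes tested, the median absolute difference was 0.74. The 3 root libraries all stood above the 3 flower libraries for 6012 of the 6064 genes called higher in root, and all below them for 7118 of the 7157 called higher in flower. Among all genes tested, 34.2% had all root libraries above and 35.9% had all flower libraries above.

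The filter on low values bears on these counts, because a gene can enter through the tissue in which it is high. At least 1 FPKM was reached in the root libraries alone by 973 genes, of which 939 were called, and in the flower libraries alone by 447 genes, of which 419 were called. With the filter applied to the stem, leaf and axil libraries alone, a choice made after the data were seen, 31043 genes were tested. Of these, 4509 were higher in root and 6304 higher in flower, together 34.8%.

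Similar levels were frequent. For 12462 genes (36.0%) the 95% interval of the difference lay within -1 and 1, so a change of 2-fold in FPKM + 1 was outside it. Of these, 4649 had a mean of at least 10 FPKM over the 15 libraries, out of 12482 genes tested at that level. The others were lower, where the scale understates a change. Of the genes not called, some of them among the 12462, 7495 passed the adjusted p at a difference under 1. For 519 genes the difference was at least 1 but the adjusted p was not under 0.05.

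**Figure D1:**
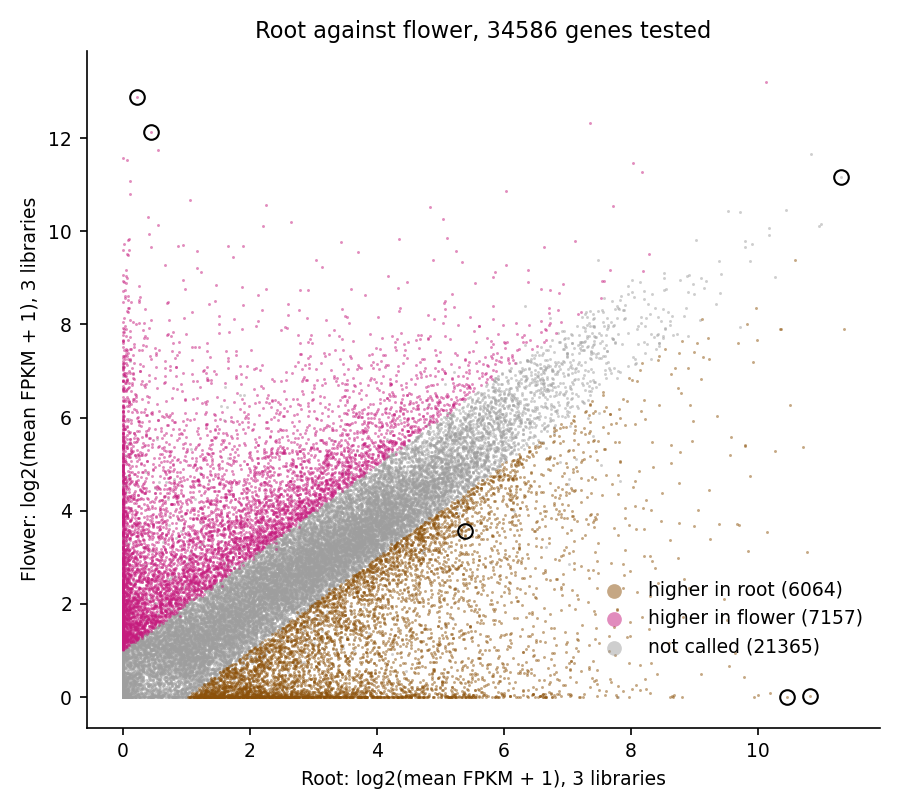
Each point is 1 of the 34586 genes tested, with the mean FPKM of the 3 root libraries on the x axis and of the 3 flower libraries on the y axis, both as log2(mean FPKM + 1). Colours mark the 6064 genes higher in root, the 7157 higher in flower and the 21365 not called, and open circles mark the 6 genes named in the text.

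The genes at the extreme of the comparison were on in one tissue and nearly silent in the other. In root, 9810 genes had at least 10 FPKM in each of the 3 libraries, and 559 of them (5.70%) were under 1 FPKM in each flower library. In flower, 10497 genes had at least 10 FPKM in each library, and 855 of them (8.15%) were under 1 FPKM in each root library. No read at all was counted in the other tissue for 126 of these root genes and 227 of these flower genes. The median level in the tissue that was on was 33.7 FPKM for the 559 root genes and 30.8 FPKM for the 855 flower genes. These counts describe the ends of the distribution and carry no test.

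Most of these genes were not confined to a single tissue of the 5. Of the 559 genes on in root and off in flower, 138 (24.7%) were also under 1 FPKM in every stem, leaf and axil library. A mean of at least 1 FPKM was reached by 329 of them in axil, 251 in leaf and 179 in stem. Of the 855 genes on in flower and off in root, 87 (10.2%) were under 1 FPKM in the libraries of the other 3 tissues. A mean of at least 1 FPKM was reached by 687 of them in stem, 596 in leaf and 584 in axil.

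HannXRQ_Chr13g0424661, on chromosome 13 by its identifier, had the largest difference towards root. It had 1367, 3216 and 841 FPKM in the root libraries 1 to 3, against 0, 0.0502 and 0 FPKM in the flower libraries. All root values were high but differed among themselves, and its flower level rested on 1 read in Flower 2. Its means were 1808 ± 1248 FPKM in root and 0.0167 ± 0.0290 FPKM in flower (SD, n = 3 each). On the log2 scale they differed by 10.57 ± 0.48 (SE; limma adjusted p = 9.13e-10). Without Root 2 the root mean was 1104 FPKM. The log2 difference was then 10.04, smaller than the 10.28 of HannXRQ_Chr16g0505511. With a pseudocount of 0.1 the differences of these genes were 13.72 and 13.75, so the first rank depended on these choices. Without Flower 2, HannXRQ_Chr13g0424661 was at 0 in flower. With the flower level taken from the reads pooled over its 3 libraries, in place of the mean of their FPKM, the ratio of root to flower was 101332. The exact Poisson 95% interval for the single flower read was 18187 to 4002420. In the other 9 libraries it lay between 0.0603 and 2.27 FPKM.

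HannXRQ_Chr16g0505511, on chromosome 16, had 1106, 1713 and 1393 FPKM in the root libraries, against 0 FPKM in each flower library. The root libraries were uniformly high, and no read was counted in flower. Root minus flower was 10.43 ± 0.38 on the log2 scale (SE; limma adjusted p = 9.96e-11). Outside root, Leaf 2 and Axil 3 alone reached 1 FPKM, so the gene was tested through its root level. Set against a floor of 3 reads over the 3 flower libraries together, 0.141 FPKM for this gene of 513 nt, its root mean of 1404 ± 304 FPKM (SD, n = 3) was at least 9958-fold higher. The stem libraries were also at 0, and the highest value outside root was 2.56 FPKM.

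The gene with the next higher identifier on chromosome 16 had nearly the same pattern. It stood at 909, 1349 and 808 FPKM in root, against 0, 0.116 and 0 FPKM in flower, and differed by a log2 value of 9.91 ± 0.24 (SE; limma adjusted p = 3.93e-12). The gene with the next lower identifier was also higher in root, at 8.10 ± 2.32 FPKM in root and 0.605 ± 0.329 FPKM in flower (SD, n = 3 each; log2 difference 2.49, limma adjusted p = 1.54e-05). The sources used here do not say how reads that match near-identical copies were counted, so the split between such neighbours is uncertain. The neighbours of HannXRQ_Chr13g0424661 were at 1.26 and 4.04 FPKM in root and at 0.889 and 1.91 FPKM in flower, and neither was called. Their log2 differences were 0.24 and 0.80 (limma adjusted p = 0.328 and 0.00136), so the neighbour with the higher identifier passed the adjusted p but not the fold.

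HannXRQ_Chr17g0559971, on chromosome 17, had the largest difference towards flower. It had 0, 0.513 and 0 FPKM in the root libraries, against 7869, 7654 and 7211 FPKM in the flower libraries. The flower values were tightly grouped, and the 3 reads counted in root all came from Root 2. Its means were 0.171 ± 0.296 FPKM in root and 7578 ± 336 FPKM in flower (SD, n = 3 each). Root minus flower was -12.69 ± 0.18 on the log2 scale (SE; limma adjusted p = 4.52e-14). The gene was under 1 FPKM in every library outside flower, so it was tested through its flower level alone. The root mean was 0 without Root 2. With the root level likewise taken from pooled reads, flower exceeded root 39599-fold, with an interval of 13550 to 192021 for the 3 root reads. Its highest value elsewhere, in Leaf 1, rested on 3 reads. The gene with the next higher identifier was also called higher in flower, at 10.9 ± 3.3 FPKM in root and 29.6 ± 5.4 FPKM in flower (SD, n = 3 each). That neighbour differed by a log2 value of -1.38 (limma adjusted p = 0.00644), and the one with the next lower identifier was not tested.

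HannXRQ_Chr16g0516891, on chromosome 16, had 0.192, 0.585 and 0.313 FPKM in the root libraries, against 4660, 3977 and 4817 FPKM in the flower libraries. The groups were far apart, and 19 reads were counted in root. The log2 difference was -11.69 ± 0.18 (SE; limma adjusted p = 1.21e-13). Its highest value in the other tissues was 2.69 FPKM, in Axil 2. Its neighbours by identifier did not share the pattern, at 0.363 and 55.6 FPKM in root and at 0.518 and 43.8 FPKM in flower (limma adjusted p = 0.586 and 0.0691).

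The most abundant gene with a difference under 0.25 was HannXRQ_Chr04g0123791, on chromosome 4. It had 2317, 2356 and 2895 FPKM in the root libraries, against 2112, 2366 and 2395 FPKM in the flower libraries. The groups overlapped, and the log2 difference was 0.13 with a 95% interval of -0.81 to 1.08 (limma adjusted p = 0.812). After quantile normalization the difference was 1.33 (limma adjusted p = 0.0358), higher in root. In stem it lay between 4312 and 6914 FPKM.

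NAC83 (HannXRQ_Chr17g0568801, chromosome 17) belongs by its name to the NAC transcription factors of plants, and it was higher in root. It had 19.2, 54.8 and 48.7 FPKM in the root libraries, against 8.55, 10.3 and 13.6 FPKM in the flower libraries. The groups did not overlap, although Root 1 was close to the highest flower library. The log2 difference was 1.72 ± 0.43 (SE; limma adjusted p = 0.00365). In the other tissues the gene lay between 24.8 and 67.7 FPKM in axil, between 1.08 and 4.13 FPKM in stem and between 0.770 and 1.24 FPKM in leaf.

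**Figure D2:**
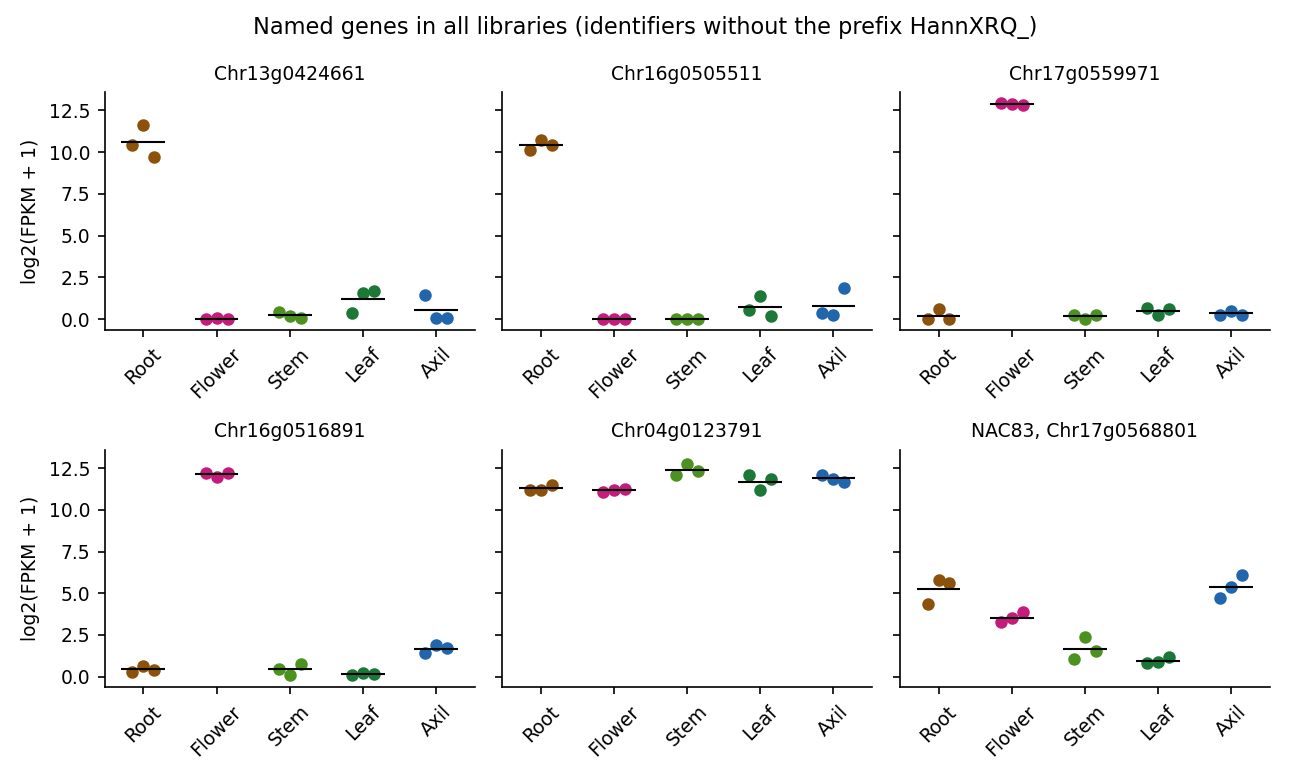
The y axis gives log2(FPKM + 1) of the 6 named genes in each of the 15 libraries, grouped by tissue on the x axis, and bars mark the mean of the 3 libraries of a tissue. HannXRQ_Chr13g0424661 and HannXRQ_Chr16g0505511 stand high in the root libraries, HannXRQ_Chr17g0559971 and HannXRQ_Chr16g0516891 in the flower libraries, and HannXRQ_Chr04g0123791 in all 15.

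The balance between root and flower changed with the mean level of the gene over all 15 libraries. That mean takes in the other tissues. Genes higher in flower had medians of 7.17, 4.75 and 4.44 FPKM in stem, leaf and axil. For genes higher in root these were 2.11, 2.71 and 4.11 FPKM. In the tissue where they were higher, both sets had a median of 12.3 FPKM. The shares by class thus partly follow from how the classes were made. Among genes with a mean under 1 FPKM over all 15 libraries, 20.2% were higher in root and 14.3% higher in flower. Such genes still reached 1 FPKM in 3 or more libraries, so these shares partly follow from the filter. At any mean, 973 genes reached 1 FPKM in the root libraries alone and 447 in the flower libraries alone. From 3 to 10 FPKM the shares were 16.5% higher in root and 20.4% higher in flower, and from 100 to 300 FPKM they were 15.6% and 30.9% in these directions. Of the 218 genes at 300 FPKM or more, 31 were higher in root (14.2%) and 101 higher in flower (46.3%), beside 17.5% and 20.7% of all genes tested. The median log2 difference in that class was -0.87, and it stayed between -0.88 and -0.69 under the scalings tried and with voom, a weighted limma fit on reads recovered from the FPKM values. In the class under 1 FPKM the order of the shares depended on the method: with voom, 27.6% were higher in root and 27.9% higher in flower.

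The balance also changed with gene length. Lengths were those implied by the FPKM steps, and the genes tested were split into 5 groups of nearly equal size. Among genes of 832 to 1304 nt, 16.9% were higher in root and 25.3% higher in flower, with a median log2 difference of -0.22. Among genes of 2589 nt or longer, 15.8% were higher in root and 13.2% higher in flower, with a median of 0.22. The same held at similar abundance: among genes with a mean of 3 to 30 FPKM, the median difference was -0.22 at 832 to 1304 nt and 0.27 at 2589 nt or longer. For the longest group the median remained positive, between 0.19 and 0.37, with voom, under the 3 scalings and without any one of the 6 libraries. The sources used here do not give RNA integrity per library, and its part in the length pattern was not tested.

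**Figure D3:**
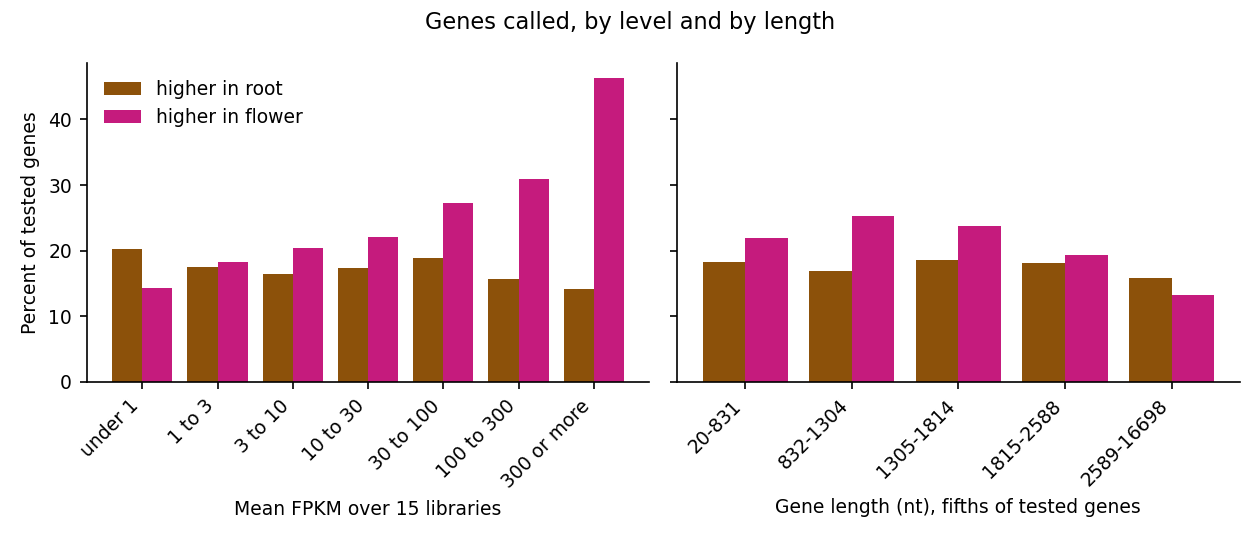
Bars give the percent of tested genes called higher in root and higher in flower, on the left by mean FPKM over the 15 libraries and on the right by gene length in nt. The flower bars reach 46.3% in the most abundant class and fall to 13.2% in the longest genes, while the root bars stay between 14.2% and 20.2%.

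The root libraries needed more genes than the flower libraries to reach a given share of the signal. The 10 most abundant genes of a library held 3.62% ± 0.10 of the summed FPKM in root and 6.88% ± 0.45 in flower (SD, n = 3 each; 2-sided exact permutation p = 0.1). This is the smallest p that 3 libraries against 3 allow. To reach 50% of the summed FPKM took 1979, 1637 and 1852 genes in the root libraries and 1381, 1578 and 1390 in the flower libraries. The groups did not overlap in either measure. The number of genes with any read was 39160 to 39663 in root and 39252 to 40192 in flower (exact permutation p = 0.3).

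The genes called higher in flower also made up much of the signal of leaf and stem, whereas those called higher in root held less there. Genes higher in root held 36.2 to 40.9% of the summed FPKM in the root libraries and 4.80 to 5.09% in the flower libraries, which is how they were chosen. In libraries that did not choose them, they held 16.1 to 21.5% in axil, 10.5 to 12.8% in leaf and 9.29 to 12.5% in stem. Genes higher in flower held 5.82 to 6.96% in root and 46.0 to 48.0% in flower. They held 38.5 to 48.5% in leaf, 30.6 to 36.3% in stem and 18.9 to 22.3% in axil. The highest leaf value was that of Leaf 2, with 38.5 and 39.1% in the other leaf libraries. The remaining genes, not called, held 52.8 to 56.9% in root and 46.4 to 48.5% in flower.

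**Figure D4:**
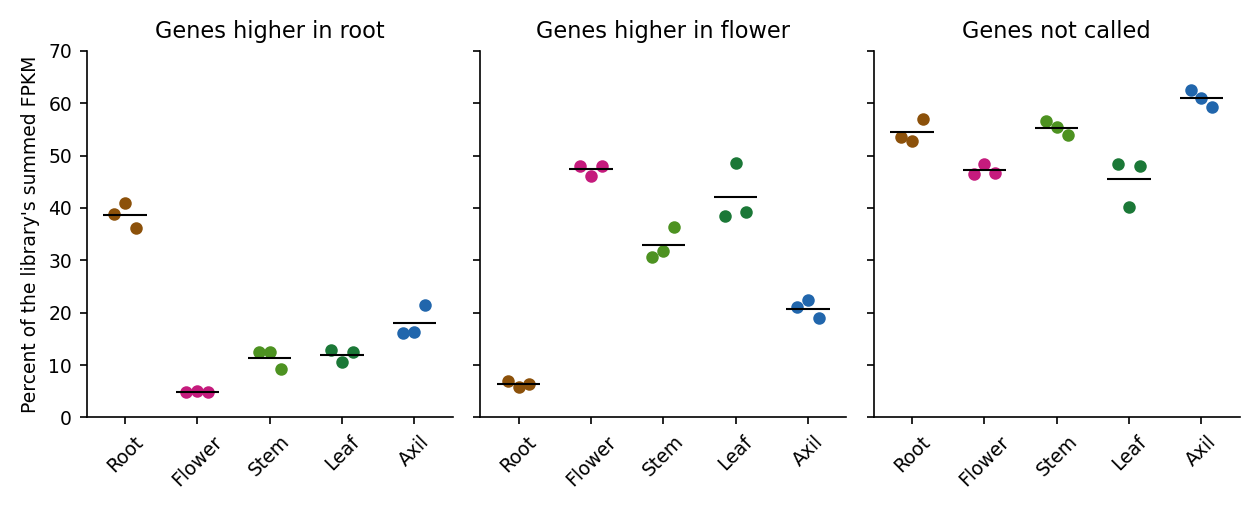
The y axis gives the percent of each library's summed FPKM held by the genes higher in root, the genes higher in flower and the genes not called, with tissues on the x axis, 1 point per library and bars at tissue means. Axil libraries, at 16.1 to 21.5%, stand above stem and leaf for the root genes, and leaf libraries, at 38.5 to 48.5%, above stem and axil for the flower genes.

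Counted gene by gene, axil was again the foremost of the other tissues for the genes higher in root, but stem rather than leaf for those higher in flower. Among genes higher in root, 1269 (20.9%) had a mean under 1 FPKM in stem, leaf and axil alike, beside 643 (8.98%) of the genes higher in flower and 7.59% of all genes tested. As the filter let genes in through root or flower alone, these shares partly follow from it. Of stem, leaf and axil, axil had the highest mean for 50.4% of the genes higher in root and for 17.2% of those higher in flower, beside 40.1% of all tested. Stem had the highest mean for 21.0% of the genes higher in root and for 49.4% of those higher in flower, beside 35.0% of all. Leaf had it for 25.6% of the genes higher in root and for 32.3% of those higher in flower, beside 24.2% of all. The shares by highest mean used FPKM as deposited, and their dependence on scaling was not tested.

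Differences between axil, stem and leaf use no root or flower library, although the fit shares 1 estimate of the spread. Of the genes higher in root, 1430 (23.6%) were higher in axil than in stem and 380 (6.27%) lower. Of the genes higher in flower, 446 (6.23%) were higher in axil than in stem and 1794 (25.1%) lower. Over all genes tested, 9.50% were higher in axil than in stem and 10.7% lower. The median log2 difference, axil minus stem, was 0.37 for the genes higher in root, -0.36 for those higher in flower and 0.07 over all tested.

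Between axil and leaf the separation was smaller. Of the genes higher in root, 1070 (17.6%) were higher in axil than in leaf and 392 (6.46%) lower, and of those higher in flower, 745 (10.4%) were higher and 1298 (18.1%) lower. Over all genes tested, 10.4% were higher in axil than in leaf and 7.88% lower. That overall direction turned round with scaling: of the genes tested, 2441 were higher in axil and 3557 lower after median-of-ratios scaling, and 2782 higher and 3299 lower after quantile normalization. After median-of-ratios scaling, 780 of the genes higher in root were higher in axil than in leaf and 533 lower, and 537 of those higher in flower were higher and 1617 lower. After quantile normalization, 861 of the genes higher in root were higher in axil than in leaf and 502 lower. Higher in stem than in leaf were 687 of the genes higher in root (11.3%) and 2033 of those higher in flower (28.4%), beside 14.6% of all tested. Lower in stem than in leaf were 970 of the genes higher in root (16.0%) and 1161 of those higher in flower (16.2%), beside 3463 of all 34586 tested. The genes higher in flower thus stood above the share of all genes in both directions. The median log2 difference, stem minus leaf, was -0.06 for the genes higher in root, 0.29 for those higher in flower and 0.10 over all. Leaving out any 1 library of the tissues compared, or changing the scaling, moved none of the counts of axil, stem and leaf by over 1.5 times.

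Identifier classes outside the chromosomes were few among the genes tested. A class of identifiers with a running number and no chromosome had 1383 members tested, at a median log2 difference of 0.06. Of these, 227 were higher in root (16.4%) and 204 higher in flower (14.8%), beside 17.5% and 20.7% of all genes tested. Their summed FPKM was 7663, 6910 and 7380 in the root libraries, against 5341, 5566 and 5515 in the flower libraries. The root libraries were higher here than any other of the 15, the next being Stem 2 at 6190. ENSRNA, the prefix of predicted noncoding RNA genes in Ensembl, had 234 identifiers tested, of which 20 were higher in root (8.55%) and 26 higher in flower (11.1%), both below the share of all genes. Without Flower 1 these counts were 17 and 19, and the median log2 difference went from -0.35 to -0.05. Of 72 unplaced identifiers, 6 were higher in root (8.33%) and 13 higher in flower (18.1%), also both below the share of all genes. Without Flower 1 the unplaced counts were 6 and 10.

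Identifiers with the prefixes CP and MT, read here as the plastid and mitochondrial genomes, differed most between replicates in flower, where Flower 1 was the highest library for both. Organelle transcripts mostly lack long poly(A) tails, so the oligo(dT) capture used here measures them only in part. The 66 MT identifiers summed to 137, 71.1 and 108 FPKM in the root libraries, against 3331, 139 and 57.1 FPKM in the flower libraries. Flower 1 was thus far above the rest, while Flower 2 and Flower 3 lay on both sides of root. The median log2 difference of the 21 MT identifiers tested was -1.66 with all libraries and 0.11 without Flower 1. With all libraries 1 of them was called higher in flower (4.76%), beside 20.7% of all genes tested. That count was 0 without Flower 1 or any 1 root library, 3 without Flower 2 and 4 without Flower 3.

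The 78 CP identifiers summed to 0.868, 0.223 and 0.292 FPKM in the root libraries, against 246, 2.09 and 14.5 FPKM in the flower libraries. Here all flower libraries were above all root libraries, and the sums rested on 3 to 5 reads per root library and 51 to 1966 per flower library. Of the 5 tested, 3 were called higher in flower (60%), beside 20.7% of all genes tested. None (0) was called without Flower 1 or any 1 root library, and 1 was called without Flower 3. Flower 1 also stood out in unplaced identifiers, with a summed FPKM of 2037 against 406 and 427 in the other flower libraries, and in ENSRNA, with 3802 against 708 and 734. The counts over all genes were 5842 higher in root and 7141 higher in flower without it.

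**Figure D5:**
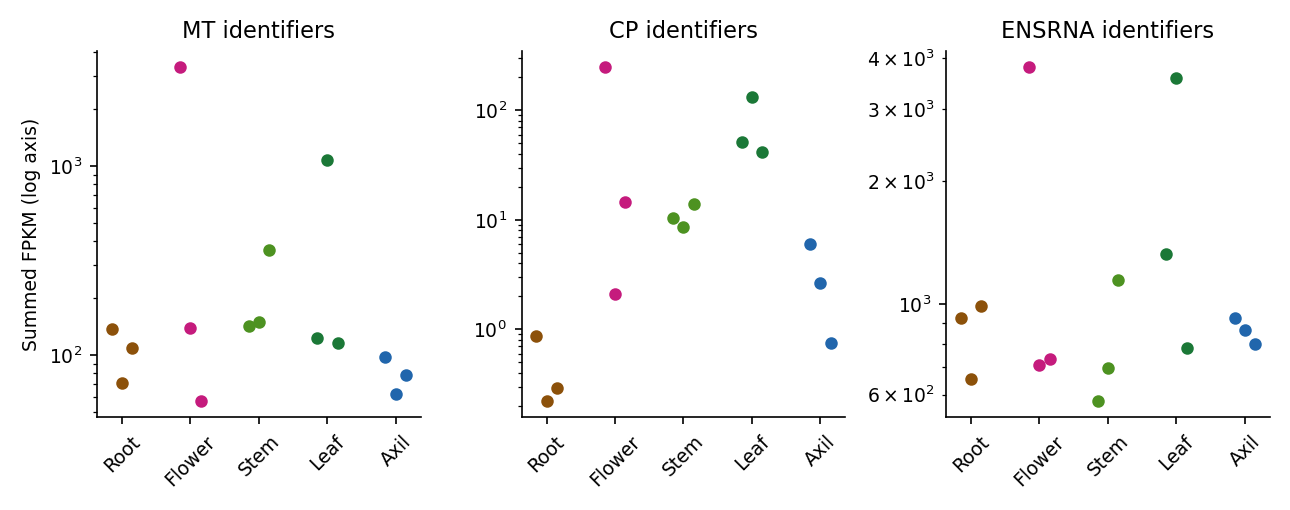
The y axes, on log scales, give the FPKM summed over all MT, CP and ENSRNA identifiers of the table, with 1 point per library and tissues on the x axes. Flower 1 is the highest point in each panel, at 3331, 246 and 3802 FPKM, with Leaf 2 next to it.

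Genes called were spread over all 17 chromosomes. The percent of tested genes higher in root ranged from 16.1 on chromosome 15 to 19.7 on chromosome 11, and the percent higher in flower from 18.8 on chromosome 4 to 22.9 on chromosome 6. Chromosome 4 was the 1 chromosome with more genes higher in root (369) than in flower (362). The median log2 difference per chromosome lay between -0.12 on chromosome 6 and 0.03 on chromosome 4.

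Genes with neighbouring identifiers tended to differ in the same direction. For chromosomal genes higher in root, the next gene tested was higher in root in 25.2% of 5806 cases and higher in flower in 17.5%. These shares stand beside 17.7% and 21.0% of all chromosomal genes tested. For genes higher in flower, the next gene tested was higher in flower in 25.7% of 6908 cases and higher in root in 15.3%, beside 21.0% and 17.7%. Identifier numbers are taken here as an order along the chromosome, and neighbours can be copies of one another that share reads. These shares are a description with no test.

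Runs of at least 4 successive genes tested and called the same way numbered 90 for root, with 415 genes, and 98 for flower, with 425 genes. The longest was a run of 13 genes higher in flower on chromosome 10, with log2 differences of 1.01 to 6.10 in size. It spanned 25 rows, those not tested included. Its genes summed to 37.2, 38.3 and 34.9 FPKM in the root libraries, against 351, 253 and 347 FPKM in the flower libraries. They were also high in stem and leaf, at 145 to 247 FPKM. The longest run towards root held 11 genes on chromosome 8 and spanned 17 rows, those not tested included. The 11 genes summed to 98.7, 91.8 and 94.3 FPKM in root, against 9.78, 12.4 and 11.3 FPKM in flower. Those genes were between root and flower elsewhere, at 24.7 to 38.4 FPKM in stem, 39.5 to 56.1 in leaf and 39.5 to 49.1 in axil.

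Some shorter runs held larger differences, and they were picked out after their values were seen. A run of 7 genes on chromosome 17, over 17 rows with those not tested, had a median difference of 7.37 in size. It summed to mean levels of 8.24 FPKM in root and 1238 FPKM in flower. The same 7 genes summed to 2116 FPKM in stem, 1549 FPKM in leaf and 200 FPKM in axil. A run of 6 genes on chromosome 1 summed to 0.0514 FPKM in root and 377 FPKM in flower, and to 1239 FPKM in axil. Towards root, a run of 6 genes on chromosome 3 had a median difference of 4.44 and summed to 333 FPKM in root and 9.16 FPKM in flower. Its sums were 45.5 FPKM in stem, 65.1 FPKM in leaf and 49.1 FPKM in axil. For 4 of its genes the mean was under 1 FPKM in each of stem, leaf and axil. A run of 6 genes on chromosome 11 had means under 1 FPKM in stem, leaf and axil for each of its genes. Its sums were 48.1 FPKM in root and 1.43 FPKM in flower, where no gene mean passed 0.593 FPKM. These 6 genes were thus tested largely through their root level, so their direction was largely set by the filter.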

How the data were processed

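Per the labels' protocols, libraries were made from poly(A) RNA selected with oligo(dT), using adaptors that carry molecular identifiers. Whether these were used in counting is not known from the sources used here, so intervals cover no more than counting error. FPKM per library, computed by the authors, were deposited beside their mean FPKM per tissue. The submitters' processing notes name HTSeq 0.6.1, with aligner, build and annotation not given in the sources used here. A further 18 unnamed columns were not used.

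Groups follow the tissue in the labels. Values were transformed to log2(FPKM + 1), and limma 3.58.1 (R 4.3.3, moderated with a trend, Benjamini-Hochberg adjustment over 34586 genes) was fitted on all 15 libraries. Whole reads and gene lengths could be worked out from the FPKM steps for 50565 of 50567 rows with values, all of them whole within 0.001. The steps were searched for until the values came out whole, so this wholeness is no independent check of the reads or lengths. The reads served for depth, floors and an alternative fit with voom. The fit and the recovery were run on simulated data as a check of the code alone. In the simulation for the fit, genes changed upward in root only and at a fixed spread, unlike in these data. Named genes were the 2 with the largest difference in each direction among those with at least 5 FPKM and no overlap, the most abundant gene with a difference under 0.25, and NAC83. The comparison, the lists and the rules were chosen with earlier results of these data known. Alternatives concerned pseudocount, filter, scaling, variance model, libraries fitted, thresholds, a replicate block and the omission of each library. Summaries and plots were made in Python 3.11.15 with SciPy 1.17.1, pandas 2.3.3, numpy 2.4.6 and matplotlib 3.10.9.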

Additional observations from a re-analysis of the deposited data

How the results depend on the processing

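Over 26 alternative settings, 47 of 52 recomputed counts of genes higher in root or in flower stayed within 1.5 times their reported value. The exceptions were a pseudocount of 5, with 3353 genes higher in root and 3982 higher in flower, adjusted p alone, with 10093 higher in root, and a log2 difference of at least 2, with 2908 and 3353. At that last threshold NAC83, at 1.72, was no longer called. Leaving out 1 library gave 4961 to 6065 genes higher in root and 6457 to 7332 higher in flower, and 1.45 to 2.18 for NAC83. The lowest counts came with the filter recomputed on 14 libraries. Of 151 recomputed differences of the 6 named genes, 149 kept direction and call. A further 5 could not be had, since the filter dropped the gene: HannXRQ_Chr17g0559971 with the filter on stem, leaf and axil alone and with the filter recomputed without each flower library, and HannXRQ_Chr16g0505511 with the filter on stem, leaf and axil alone. Beside NAC83, the exception was HannXRQ_Chr04g0123791 after quantile normalization. Of 120 recomputed counts per identifier class, 98 stayed within 1.5 times. The next gene in the table, tested or not, was called the same way for 16.7% of genes higher in root and 17.3% of genes higher in flower, beside 10.2% and 12.1% of all chromosomal rows called in these directions.

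Genes on in one tissue and off in the other follow the level asked for. At 5 FPKM, 964 root genes and 1290 flower genes were under 1 FPKM in the other tissue, and 213 root genes had no read in flower. At 20 FPKM these were 319 root and 512 flower genes, with 62 and 124 at no read in the other tissue.

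Root and flower libraries with the same replicate number did not deviate together, with correlations of -0.0215, -0.107 and 0.0180 between their deviations. A replicate block gave 6042 genes higher in root and 7122 higher in flower and left the calls of the 6 named genes as they were.

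Depth limits statements on low genes, and the treatment of low values also bears on the counts. At the same depth, voom on recovered reads gave 6972 genes higher in root and 8726 higher in flower. A pseudocount of 0.1 gave 7052 and 8746. The planned voom with TMM factors was not run. Voom with median-of-ratios library sizes took its place, chosen after the data were seen.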

Other observations

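The 28825 rows that did not pass the filter held 0.381 to 0.535% of the reads in root libraries and 0.279 to 0.545% in flower libraries. Of these rows, 12844 were at 0 in all 15 libraries. Reads in all 3 root libraries with none in flower were found for 1113 of them, and reads in all 3 flower libraries with none in root for 762. Their highest single value was 80.4 FPKM in a root library and 375 FPKM in a flower library.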
